A study of Mus musculus with 2 samples.

Results

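The genes described here are 8 genes of cytotoxic granules and of the lymphocytes that carry them: the granzymes Gzma, Gzmb and Gzmc, the pore former Prf1, the granule proteoglycan core protein Srgn, the granule membrane protein Nkg7, the receptor chain Klrd1 and the chemokine Ccl5. They are 8 of the 31053 genes in the count tables, and each matched 1 identifier. They were chosen on their UMI counts in these same tables, by tissue and cluster, so those levels are given as a description, with no test. The samples are 1 spleen library and 1 bone marrow library of LSK cells (Sca1 and c-Kit on the surface, little or no lineage marker), the gate that holds mouse blood stem and early progenitor cells. Both came from C57BL/6 mice, aged 6 to 8 weeks when Hepa1-6 hepatoma cells were injected into the liver, so every cell is from a tumour-bearing animal, there is no tumour-free group, and the number of mice pooled per library is not given in the sources used here. In spleen 6546 cells gave 85937174 unique molecular identifiers (UMIs, 1 per captured transcript; median 9978 per cell). In bone marrow 10088 cells gave 73740963 UMIs (median 5991). With 1 library per tissue no difference between tissues can be tested, and all intervals below are 95% intervals for counting error only.

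Granzymes are serine proteases packed in secretory granules on a scaffold of serglycin, the product of Srgn. In killer lymphocytes perforin, the product of Prf1, opens the way for them into a target cell, and Nkg7 takes part in granule release. Mast cells and basophils build their granules on the same scaffold and fill them with chymases such as those of Cma1 and Mcpt4, whose genes lie beside Gzmb in the mouse. Klrd1 encodes CD94, which pairs with the NKG2 receptors encoded by Klrc genes, and Ccl5 encodes a chemokine that draws T cells and monocytes.

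The stretches just upstream of the 3 granzyme genes and of Prf1 are shown because, as described below, spleen Gzmb and Prf1 shared cells of one cluster, Gzma was mostly in another and Gzmc, the neighbour of Gzmb, had 2 UMIs in all. Each is the 250 bases before the RefSeq transcription start in GRCm38.p6, written 5′ to 3′ on the gene's own strand. Capitals mark matches, on either strand, to any of 5 motifs: TGANTCA for AP-1, the cyclic AMP response element core spelled TGACGT, the RUNX motif spelled TGTGGT, the GATA motif spelled AGATAA and the E-box spelled CATGTG. The matches to TGACGT on both strands overlap in Gzmc. Windows were found for 6 of the 8 genes.

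Gzmb, chr14:56262335-56262584, minus strand: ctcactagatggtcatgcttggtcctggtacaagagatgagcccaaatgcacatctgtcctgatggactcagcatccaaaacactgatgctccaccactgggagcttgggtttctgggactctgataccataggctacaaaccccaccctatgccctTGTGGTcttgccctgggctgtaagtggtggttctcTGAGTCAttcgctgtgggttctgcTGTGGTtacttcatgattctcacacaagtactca
Gzmc, chr14:56234658-56234907, minus strand: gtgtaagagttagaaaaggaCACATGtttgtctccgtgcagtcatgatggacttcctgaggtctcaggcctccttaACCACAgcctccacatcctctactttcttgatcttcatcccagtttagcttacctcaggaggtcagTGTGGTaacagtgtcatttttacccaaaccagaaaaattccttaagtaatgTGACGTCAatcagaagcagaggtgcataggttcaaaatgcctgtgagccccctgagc
Gzma, chr13:113100982-113101231, minus strand: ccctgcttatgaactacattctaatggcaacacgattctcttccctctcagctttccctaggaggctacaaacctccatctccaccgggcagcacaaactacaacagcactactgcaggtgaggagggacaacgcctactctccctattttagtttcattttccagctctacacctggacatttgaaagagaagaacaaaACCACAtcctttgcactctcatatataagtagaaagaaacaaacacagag
Prf1, chr10:61297586-61297835, plus strand: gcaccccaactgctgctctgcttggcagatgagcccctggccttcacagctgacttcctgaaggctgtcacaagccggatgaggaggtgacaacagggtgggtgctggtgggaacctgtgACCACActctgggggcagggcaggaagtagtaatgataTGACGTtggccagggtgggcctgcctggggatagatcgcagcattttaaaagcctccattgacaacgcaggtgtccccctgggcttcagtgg

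The Gzmb window held TGAGTCA beginning 58 bases before the start, between copies of TGTGGT that begin 93 and 34 bases before it. TGANTCA was in 6.75% of the 32851 windows of the same length over all genes, and TGTGGT was in 14.05%. Gzmc, its neighbour, had no TGANTCA, and neither did the chymase genes Cma1 and Mcpt4. TGTGGT was also in the windows of Mcpt4 and of the granzyme genes Gzmd, Gzme, Gzmf and Gzmg, which had 0 UMIs, and not in those of Cma1 and Gzmn. Gzmc carried TGTGGT, the palindrome TGACGTCA beginning 57 bases before the start, and CATGTG. Prf1 held TGACGT and TGTGGT, and Gzma held TGTGGT alone. TGACGT was in 6.47% of all windows, CATGTG in 12.25% and AGATAA in 9.99%; AGATAA was in none of the 4 windows printed. A match is a run of letters and not evidence of binding.

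Over all cells, 3 of the 8 genes (Gzma, Gzmb and Klrd1) were at least 2-fold higher in the spleen library and none was 2-fold lower, on log2 of CPM plus 1, where CPM is a gene's UMIs scaled to one common total per library or cluster. The same rule over the 8644 genes that averaged 10 CPM or more gave 4.15% higher and 6.55% lower, or 359 and 566 genes. That balance depends on the scaling: with TMM factors 541 genes were higher and 355 lower, with each cell weighed alike 378 and 349, with cells thinned to 3700 UMIs 340 and 320, and with clusters weighted alike 190 and 97. Of the 8 genes, 4 (Gzmb, Nkg7, Srgn and Ccl5) passed that minimum, and of these 1 (Gzmb) was at least 2-fold higher and 0 were lower. Their log2 ratios were 4.50, -0.33, -0.37 and 0.77 in that order. The median log2 ratio was -0.11 over all genes that passed the minimum. Over the 8 genes, with no minimum, it was 0.86, so those 2 medians are not over like sets. Gzma had 1298 UMIs in spleen and 0 in bone marrow, at least 371.3-fold higher against a floor of 3 counts. Gzmb reached 75.7 CPM in spleen and 2.39 CPM in bone marrow, a ratio of 31.7 (27.3 to 37.1). Klrd1 was at 8.81 CPM in spleen and 2.46 CPM in bone marrow, a ratio of 3.59 (3.05 to 4.24). Prf1 was scarce in both libraries, at 2.80 CPM in spleen and 0.976 CPM in bone marrow, a ratio of 2.87 (2.20 to 3.79), and Ccl5 was at 20.6 and 11.7 CPM in the same order, a ratio of 1.77 (1.63 to 1.92). Nkg7 (87.3 CPM in spleen and 110 CPM in bone marrow) and Srgn (818.4 CPM in spleen and 1059 CPM in bone marrow) were lower in spleen, at ratios of 0.794 and 0.773. That direction for Nkg7 turned in 3 of 8 alternative scalings, and for Srgn in 2 of 8. In such totals, more cells of a kind and more RNA per cell cannot be told apart, and the makeup of the libraries differed: the cluster richest in Gzmb was 8.45% of spleen cells and 0.357% of bone marrow cells. The values are therefore given by the authors' clusters, whose short names (HSC-1 to HSC-3, DCP, LP, MEP, MP and MCP) are used as deposited.

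Within each of the 8 clusters the same rule was applied to all 8 genes, with no test. HSC-1 had 4 of the 8 higher in spleen (Gzma, Gzmb, Prf1 and Klrd1) and 0 lower, where 2.27% of genes were higher and 0.711% lower. HSC-2 added Ccl5 to those 4 and had 0 lower, against 0.589% and 0.659% of genes. HSC-3 had 3 higher (Gzma, Gzmb and Klrd1) and 0 lower, against 2.78% and 2.31%. DCP had 4 higher (Gzma, Gzmb, Klrd1 and Ccl5) and Nkg7 lower, against 7.91% and 16.5%. LP had 4 higher (Gzma, Gzmb, Nkg7 and Ccl5) and Prf1 lower, against 3.54% and 4.93%. MEP had 2 higher (Gzma and Gzmb) and 0 lower, against 1.25% and 4.7%. MP had 2 higher (Gzma and Ccl5) and 2 lower (Nkg7, and Prf1 with 0 UMIs against 1), against 2.61% and 14.4%; for Gzma there, bone marrow was at 0 and 3 counts would be 3.04 CPM, above the spleen value of 1.10 CPM. MCP had 4 higher (Gzma, Gzmb, Prf1 and Klrd1) and 0 lower, against 12.2% and 12.9%; for Gzma and Klrd1 there, bone marrow was at 0 and 3 counts would be 14.1 CPM, above the spleen values of 12.7 and 7.64 CPM. The percentages are over genes that averaged 10 CPM or more within the cluster, a filter that between 2 of the 8 genes (in DCP and MEP) and 5 (in LP) passed, while the counts take all 8. The genes were chosen on this contrast, so nothing is read from the counts.

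**Figure D1:**
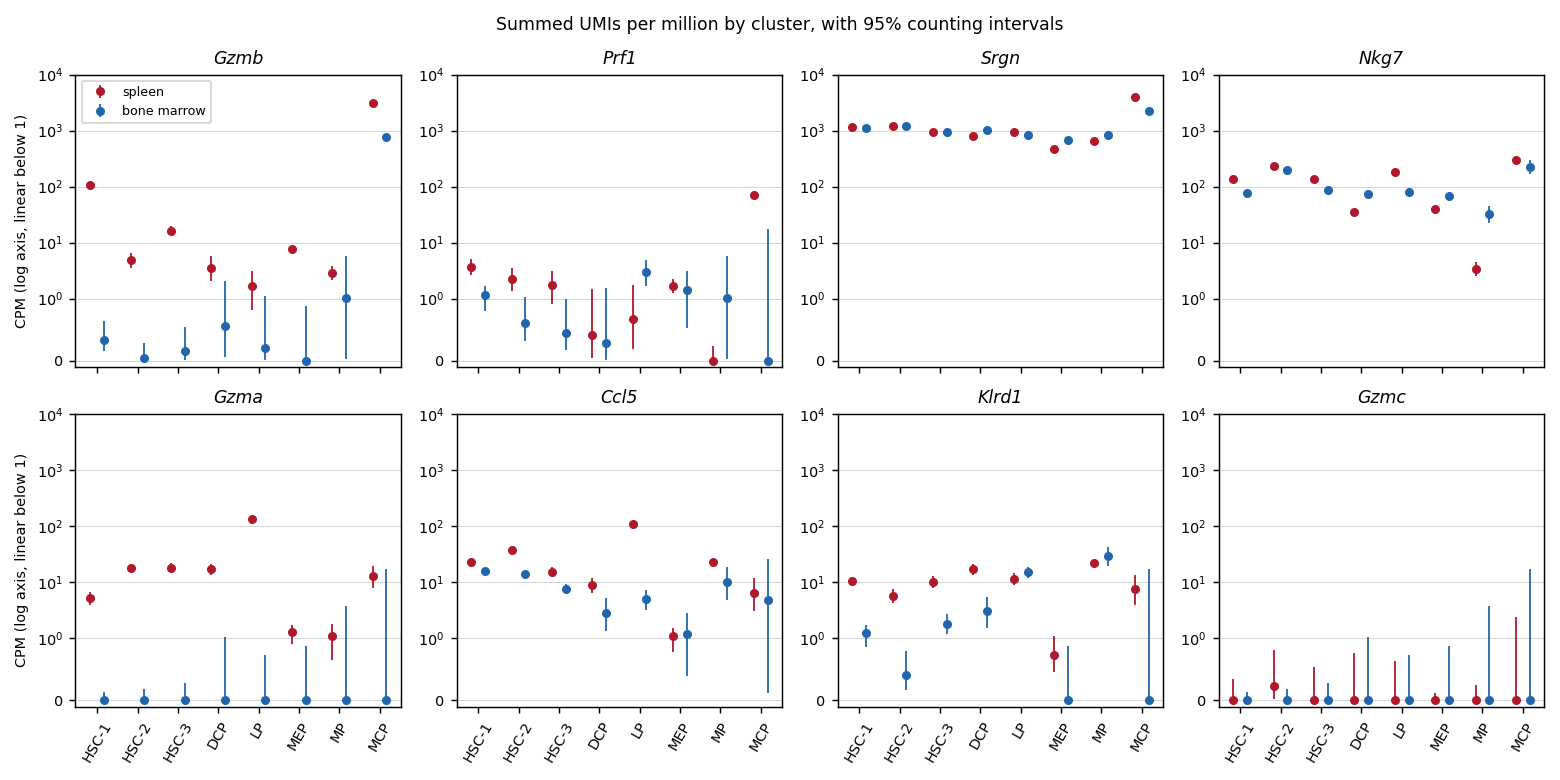
CPM (y axis, logarithmic and linear below 1) of each gene in the 8 clusters (x axis), spleen in red on the left and bone marrow in blue on the right, with bars for the 95% counting interval. Gzmb peaked in spleen MCP at 3095 CPM, Gzma and Ccl5 in spleen LP at 135.6 and 109.9 CPM, and every Gzma value in bone marrow is 0.

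Gzmb was concentrated in MCP. In spleen this cluster was rich in the mast cell genes Cma1 (8549 CPM), Mcpt4 (8481 CPM) and Cpa3 (4868 CPM). In bone marrow Cpa3 was at 1348 CPM, the basophil proteases Prss34 and Mcpt8 were at 1015 and 605.9 CPM, the neutrophil genes Ctsg and Mpo were at 789.1 and 718.7 CPM, and Cma1 was at 192.6 CPM, so the cluster of that name differed in makeup between the libraries. Spleen MCP held 4859 of the 6508 spleen UMIs of Gzmb (74.7%), at 3095 CPM (3009 to 3184), in 159 of 553 cells. Bone marrow MCP, with 36 cells, held 160 of 176 UMIs (90.9%), at 751.5 CPM (639.6 to 877.4), in 18 cells. The spleen level was 4.12 times that in bone marrow (3.52 to 4.85). Gzmb was found in 28.8% of spleen MCP cells at a median of only 1827 UMIs per cell, in 84.2% of the 133 cells with at least 3700 UMIs after thinning to that depth, and in 27.4% of 518 cells at 1000 UMIs. Those 133 cells are the deep end of the cluster, so the higher share is not that of all its cells. Outside MCP, spleen LP and MP held Gzmb UMIs in 1.44% and 1.91% of cells at median depths of 7899 and 10725 UMIs. No LP cell held more than 1 of the 10 UMIs there, and MP had 45 UMIs. Whether these UMIs are background RNA was not tested.

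Within spleen MCP, Gzmb and the chymase Cma1 were high in different cells. The 120 cells with at least 10 Gzmb UMIs had a median of 34 Gzmb UMIs and 0 Cma1 UMIs, and 68 of them held no Cma1 UMI. The 394 cells without Gzmb had a median of 26 Cma1 UMIs, and 391 of them held at least 1. Between these lay 39 cells with 1 to 9 Gzmb UMIs. Summed, Cma1 was at 1194 CPM in the 159 cells with Gzmb and 16798 CPM in those without, and Mcpt4, a second mast cell chymase, was at 1507 and 16303 CPM in the same order. Of 11 listed mast cell markers, Kit (1542 and 1042 CPM), Gata2 (1307 and 743.3 CPM) and Cyp11a1 (929.1 and 701.4 CPM) were higher with Gzmb. The rest were lower with Gzmb, Cpa3 at 3063 and 6891 CPM. The deposited values gave the Gzmb cells a larger library, with a median of 4635 UMIs against 1511 in cells without Gzmb. At 1000 UMIs per cell the split was still seen, with Cma1 in 30.3% of cells with Gzmb and 97.3% of cells without it. Cma1 was also found in 12.9 to 24.2% of the cells of every other spleen cluster.

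**Figure D2:**
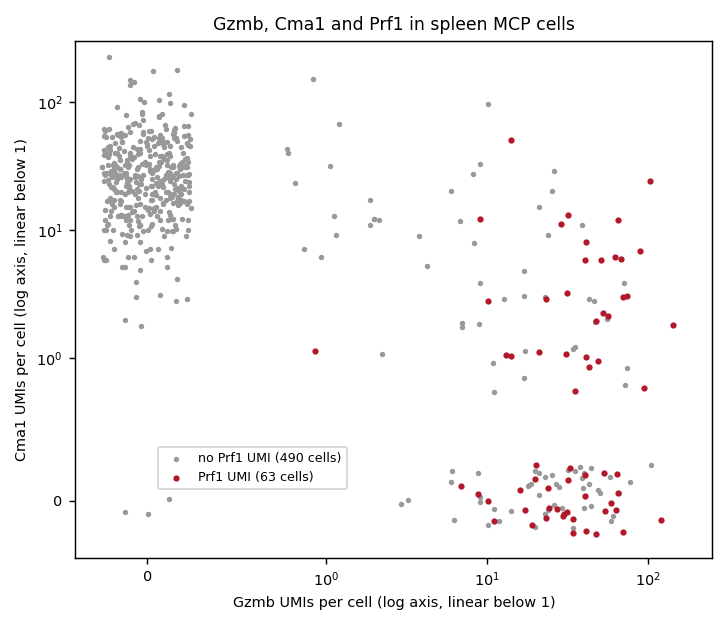
Gzmb UMIs (x axis) and Cma1 UMIs (y axis) in each of the 553 spleen MCP cells, on logarithmic axes that are linear below 1, with a small random shift so that points do not cover each other. Cells with a Prf1 UMI (63, red) lie on the side with Gzmb, and the 394 cells at 0 on the x axis had none.

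In spleen MCP, perforin RNA was found in cells with Gzmb. All 63 spleen MCP cells with a Prf1 UMI also held Gzmb, which is 39.6% of the cells with Gzmb and 0 of 394 without. A count of 0 in 394 cells allows a share of cells with a UMI of up to 0.761%, a limit on detection and not on expression. The cells without Gzmb were shallower, yet at 1000 UMIs the result was 23 of 142 cells with Gzmb against 0 of 376 without. Prf1 reached 132.6 CPM in the cells with Gzmb, 59 of the 63 Prf1 cells had 10 or more Gzmb UMIs, and no cell in either library held more than 5 Prf1 UMIs. Nkg7 was in 115 of the 159 cells with Gzmb (503.7 CPM) and in 32 of the 394 without (60.8 CPM). Of 5 basophil markers, Mcpt8, a protease, was the one higher with Gzmb, at 344.6 CPM with Gzmb and 5.41 CPM without, in 73 and 4 cells. The other 4 were lower with Gzmb: the protease Prss34 was at 9.64 CPM with Gzmb and 264.9 CPM without, Cd200r3 at 20.5 and 208.1 CPM, Fcer1a at 461.5 and 2477 CPM and Ms4a2 at 384.4 and 447.3 CPM in the same order. Trbc1, the constant segment of the T cell receptor beta chain, was in 62 and 8 of these cells, while Trdc, the delta chain, was in 1 and 4, and Cd3e had 0 UMIs in both sets. Srgn ran the other way, at 2915 CPM with Gzmb and 5294 CPM without. The 18 bone marrow MCP cells with Gzmb and the 18 without did not repeat the spleen pattern, at median depths of 3070 and 8056 UMIs. Cma1 was in 9 cells with Gzmb and 3 without, at 258.9 and 160.4 CPM. Nkg7 was in 7 and 13 of them, at 230.1 and 223.2 CPM. Ctsg, the neutrophil and basophil protease cathepsin G, was at 0 CPM with Gzmb and 1172 CPM without. Mcpt8 was at 129.4 and 837 CPM in that order. Prf1 had 0 UMIs in bone marrow MCP, where 3 counts would be 14.1 CPM.

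The cell labels that the authors assigned by matching to a mouse cell atlas divided the spleen cells in the same way. Gzmb reached 7001 CPM in 112 cells labelled as bone marrow basophils, 7621 CPM in 10 labelled as bone marrow mast cells and 5660 CPM in 23 labelled as small intestine mast cells. It was at 508.8 CPM in 40 cells labelled as neonatal skin mast cells and 499.4 CPM in 550 labelled as neonatal muscle mast cells. Cma1 was at 273.1 CPM in the basophil-labelled cells and 15504 CPM in the neonatal muscle mast cells. Prf1 was at 129 CPM in the basophil-labelled cells, and at 10.4 CPM in the neonatal muscle mast cells. Matching used expression, Gzmb included, so the labels are not an independent measure. In bone marrow, 16 cells carried the basophil label, with Gzmb at 1085 CPM, Mcpt8 at 1540 CPM and no Prf1 UMI.

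**Figure D3:**
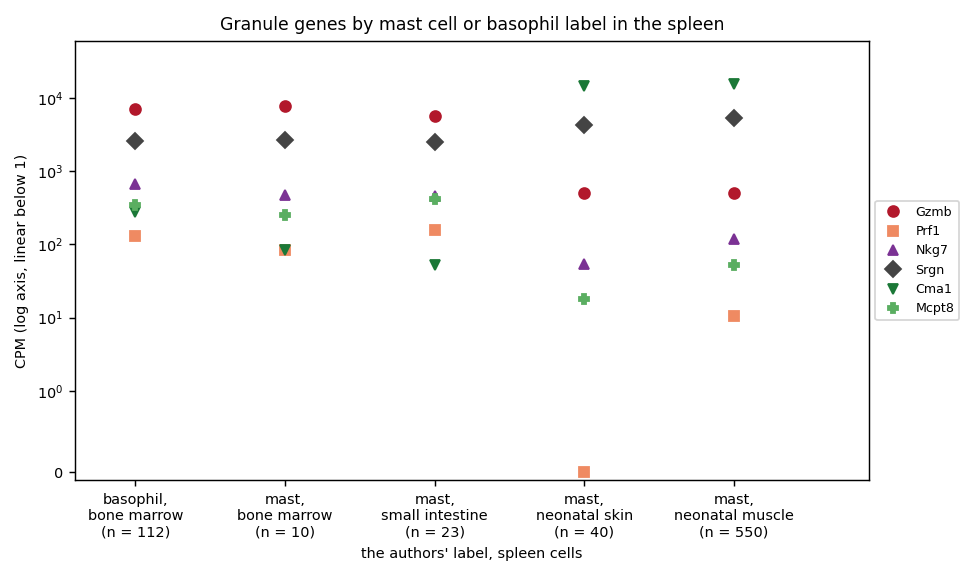
CPM (y axis, logarithmic and linear below 1) of 6 granule genes in spleen cells by the authors' mast cell or basophil label (x axis), with the number of cells under each. Gzmb, Prf1, Nkg7 and Mcpt8 were higher and Cma1 was lower in the 3 labels on the left than in the 2 on the right; Gzmb was at 7001 CPM in the first and 499.4 CPM in the last.

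Gzmb sits at one end of a run of 15 protease genes on chromosome 14, at 56258838 to 56262260 (mm10, minus strand), and expression in spleen MCP was not graded along it. Cma1, whose start is 317.6 kb from that of Gzmb, was at 8549 CPM. Mcpt1 (244.3 kb), Mcpt2 (220.2 kb), Mcpt4 (199.9 kb), Mcpt8 (177 kb) and Ctsg (159.7 kb) were at 371.4, 163.7, 8481, 184.7 and 108.3 CPM. The next 5 genes, Gzme, Gzmd, Gzmg, Gzmn and Gzmf, had 0 UMIs in both libraries, as did Gzmk on another chromosome. Gzmc, 27.6 kb from Gzmb, had 0 UMIs in MCP and 2 in all, both in 1 spleen HSC-2 cell. Gzmb was thus the 1 granzyme of the run with more than 2 UMIs, and of 7 further granzyme genes only Gzmm was seen, with 34 UMIs in spleen and 52 in bone marrow. Mcpt1 and Mcpt2 went with Gzmb, at 689.3 and 300 CPM in spleen MCP cells with Gzmb and 14.9 and 10.8 CPM in those without.

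Smaller numbers of spleen cells with Gzmb were in HSC-1 and MEP. HSC-1, where most spleen cells were labelled as multipotent progenitors, held 1177 UMIs at 108.3 CPM (102.2 to 114.7) in 78 of 1539 spleen cells, against 9 UMIs in 9 of 5049 bone marrow cells, a ratio of 319.7 (167.8 to 700.8). All 24 spleen HSC-1 cells labelled as bone marrow basophils held Gzmb, at 7731 CPM. The 831 labelled as multipotent progenitors were at 5.56 CPM. Prf1 was in 16 of the 78 cells with Gzmb and in 1.37% of the others. MEP, a cluster rich in the erythroid gene Car1, showed Gzmb in 10.4% of spleen cells at a median of 36084 UMIs, and in 1.57% after thinning to 3700 UMIs, against 0 of 357 bone marrow cells, where 3 counts would be 0.715 CPM. Gzmb UMIs per Cma1 UMI in spleen were 1.59 in HSC-3, 0.695 in MEP, 0.384 in HSC-1, 0.362 in MCP, 0.162 in DCP, 0.123 in HSC-2, 0.0924 in MP and 0.0465 in LP.

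Across the authors' erythroid labels, taken over all clusters, the granule genes were graded in CPM. Depth at each label is not given here. Whether depth or background RNA has a part in the gradient was not tested. In spleen, Gzmb was at 36.7 CPM in Ery-1 cells, 11.3 in Ery-2 and 2.55 in Ery-3, and Prf1 was at 10.8, 5.36 and 0.495 CPM. Nkg7 was at 339.7, 98.8 and 10.6 CPM along the same labels in spleen, and at 173.2, 34.8 and 5.91 CPM in bone marrow. Srgn was at 1017, 651.6 and 393.5 CPM in spleen and 914.9, 632.7 and 448.8 CPM in bone marrow. Gzmb had 0 UMIs at all 3 labels in bone marrow. Neighbouring labels had separate counting intervals for Gzmb and Nkg7 in spleen and for Srgn in both libraries. Such intervals leave out the spread between cells, so they are no test of a difference between labels. For Prf1 the spleen intervals of Ery-1 (6.42 to 17.1 CPM) and Ery-2 (3.19 to 8.48 CPM) overlapped. In spleen MEP, Nkg7 was in 73.1% of the 93 cells with Gzmb and 36.3% of the 798 without, at median depths of 32139 and 36448 UMIs.

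**Figure D4:**
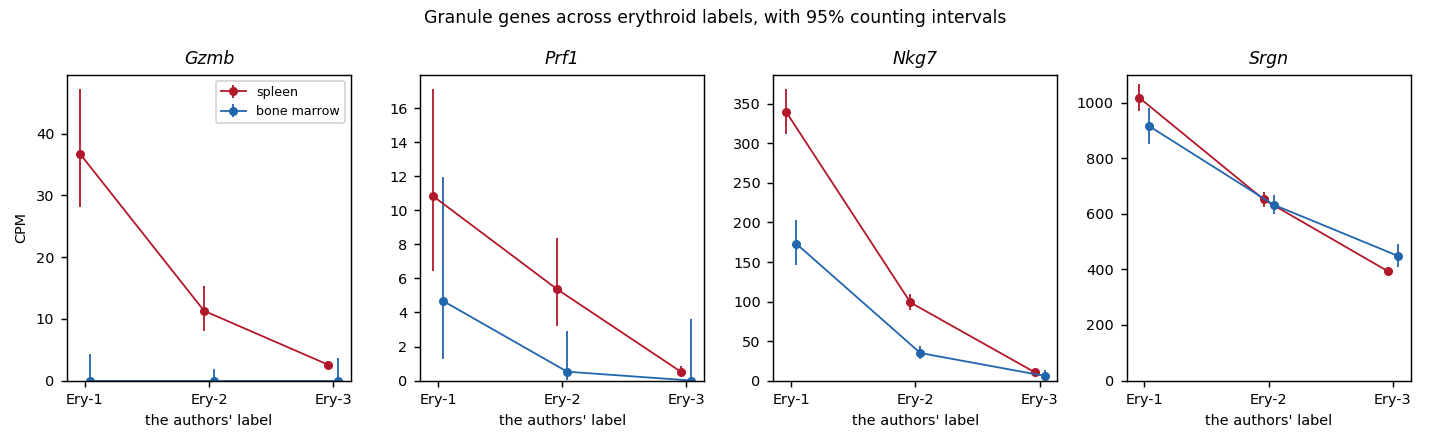
CPM (y axis, from 0) of Gzmb, Prf1, Nkg7 and Srgn at the authors' erythroid labels Ery-1, Ery-2 and Ery-3 (x axis), spleen in red and bone marrow in blue, with 95% counting intervals. Each gene was highest at Ery-1 in spleen, Nkg7 at 339.7 CPM against 10.6 CPM at Ery-3, and Gzmb was 0 throughout in bone marrow.

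Gzma and Ccl5 were highest in the spleen LP cluster, whose cells carried RNA of the T cell receptor. Gzma was at 135.6 CPM (126.4 to 145.4) in 148 of 693 spleen LP cells (21.4%), with up to 61 UMIs in a cell, and in 0 of 770 bone marrow LP cells, where 3 counts would be 0.597 CPM. Ccl5 was at 109.9 CPM in 150 spleen LP cells (21.6%) and 4.97 CPM in 17 bone marrow LP cells, a ratio of 22.1 (14.8 to 34.4). Spleen MEP and MP held Gzma in 0.449% and 0.637% of cells, at median depths of 36084 and 10725 UMIs, against 7899 in spleen LP. Trbc1 was in 202 of the 232 spleen cells with Gzma over all clusters.

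The cells with Gzma and those with Ccl5 were largely separate. Among the 693 spleen LP cells, 139 held Gzma alone, 141 held Ccl5 alone, 9 held both and 404 held neither. Ccl5 was thus in 6.08% of cells with Gzma and 25.9% of cells without, at median depths of 6993 and 8193 UMIs. At 1000 UMIs per cell the shares were 3.45% and 6.77%, resting on 2 cells with both genes. Trbc1 was in 93.2% of the cells with Gzma and 94.0% of those with Ccl5. Cells with Gzma alone had more RNA of the gamma chain segment Tcrg-C1 (168.3 CPM) than cells with Ccl5 alone (53.7 CPM) or with neither (58.6 CPM), and more of Gata3, a regulator of early T cell development (227.2, 98.9 and 113.6 CPM in the same order). Thy1, a T cell surface protein, was at 145.4, 30.7 and 45.3 CPM in that order. Cd3e was low in all 3 sets, at 10.5, 0 and 2.31 CPM. Prf1 was in 0 of the 148 LP cells with Gzma, which allows a share of cells with a UMI of up to 2.03%, and in 4 of the 545 without, too few to compare. Gzmb was in 1 of the 148. Over the whole spleen library, 8 cells held Gzma and Gzmb together, of 232 and 424 with either.

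**Figure D5:**
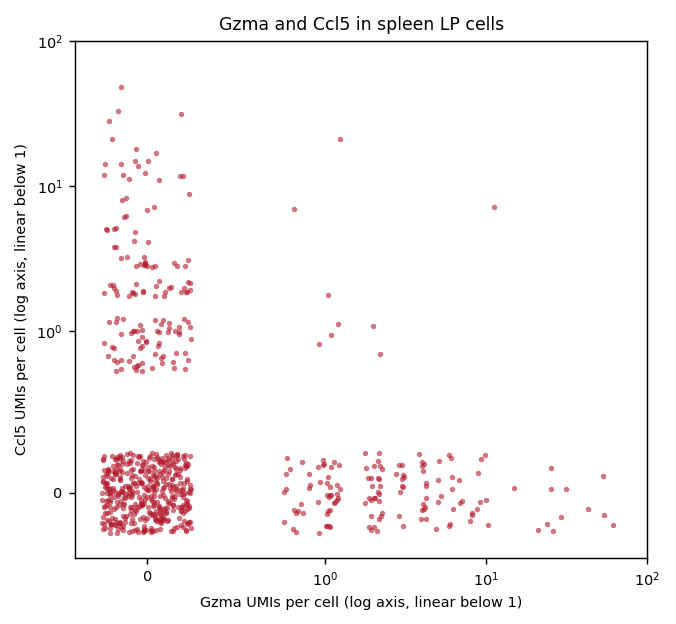
Gzma UMIs (x axis) and Ccl5 UMIs (y axis) in each of the 693 spleen LP cells, on logarithmic axes that are linear below 1, with a small random shift. The 139 cells with Gzma alone lie along the bottom, the 141 with Ccl5 alone along the left, and 9 cells hold both.

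In bone marrow, most Ccl5 UMIs were in few cells, though 70.2% of the 208 cells with Ccl5 held 1 UMI. Of its 859 UMIs, 427 were in HSC-1, where 94 of 5049 cells (1.86%) held it. HSC-1 was 50.05% of the cells of that library, and 2.06% of all its cells held Ccl5. Over the library 23 cells with 10 or more UMIs held 65.7% of all Ccl5 UMIs, and the highest had 82. Spleen was alike, with 51.4% of Ccl5 UMIs in 42 such cells and a highest of 69. In bone marrow HSC-1 Hlf, a stem cell regulator, was at 684.8 CPM in cells with Ccl5 and 673.4 CPM in cells without, and H2-Aa was at 22.7 and 19.5 CPM in that order. Of 6 neutrophil markers, 4 are given here, each higher in the cells with Ccl5. Elane and Prtn3 are not given for these cells, so nothing is read for the list as a whole. S100a8 was at 77.6 and 16.1 CPM, S100a9 at 96.5 and 16.9 CPM, Mpo at 179.7 and 100.9 CPM and Ctsg at 75.7 and 34.1 CPM, with Ccl5 before without in each. Trbc1 was in 0 of the 94 cells with Ccl5, which allows a share of cells with a UMI of up to 3.19%, and in 4 of the 4955 without, too few to compare. In spleen HSC-1, 68 cells held Ccl5, and H2-Aa, an antigen-presenting molecule, was in 61.8% of these cells and 34.0% of the others, at median depths of 7062 and 6931 UMIs. None of the 6 neutrophil markers was higher with Ccl5 there. Mpo was at 20.2 CPM with Ccl5 and 27.1 CPM without, and Prtn3 at 239.8 and 410.9 CPM. Spleen MP, a cluster led by antigen-presentation genes such as Cd74 and H2-Aa, held Ccl5 in 141 of 1413 cells at 22.9 CPM. There 13 cells labelled as S100a4-high spleen dendritic cells reached 1346 CPM of Ccl5 and 483 CPM of Klrd1.

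By CPM, Klrd1 was highest in MP in both libraries. Spleen MP held 342 of its 757 spleen UMIs, at 22.1 CPM (19.8 to 24.6) in 225 cells (15.9%), and bone marrow MP had 29.4 CPM (19.7 to 42.2) in 19 of 118 cells. Those intervals overlap. Klrd1 was in 1.46% of spleen MEP cells at their greater depth of 36084 UMIs. H2-Aa was in nearly all spleen MP cells, 225 of the 225 with Klrd1 and 1184 of the 1188 without. Nkg7 was in 5 of those with Klrd1. By UMIs, LP was the largest source in bone marrow, with 76 of 181 UMIs at 15.1 CPM (11.9 to 18.9), against 11.3 CPM (8.79 to 14.4) in spleen LP. Bone marrow HSC-1 held 33 UMIs, MP 29 and HSC-3 24. The spleen LP cells with Klrd1 held Trbc1 in 74.5% of 51 cells and those without in 89.6%. Klrd1 in spleen HSC-1 was at 10.4 CPM, and within it the 70 cells labelled T-cell-Cd3d+ reached 143.6 CPM. Among the genes of NKG2 receptors and their adaptors, Klrk1 (NKG2D) and Tyrobp were at least 2-fold higher in spleen, of 3 that passed the minimum and 8 listed. Klrk1 was in 82.4% of spleen MP cells, at 276.6 CPM against 189.6 CPM in bone marrow MP. Klrc1, which encodes the NKG2A partner of CD94, had 2 UMIs in spleen and 1 in bone marrow, and Klrc3 had 0 in both.

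Nkg7 was widespread and differed between tissues in both directions by cluster. It was in 38.4% of spleen cells and 38.6% of bone marrow cells. In HSC-2 it was at 231.1 CPM in spleen and 197.2 CPM in bone marrow, where 75 cells labelled Neu-4 reached 662.5 CPM. LP had 183.4 CPM in spleen and 79.8 CPM in bone marrow, a ratio of 2.30 (2.05 to 2.59), and HSC-1 had 135.6 and 76.0 CPM in that order, a ratio of 1.78 (1.67 to 1.91). In MP it was at 3.43 CPM in spleen and 32.5 CPM in bone marrow, a ratio of 0.106 (0.0668 to 0.169), and DCP had 34.5 CPM in spleen and 73.5 CPM in bone marrow.

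Srgn had the highest UMI count of the 8 genes in every cluster of both libraries (3′ counts, which do not scale with transcript length) and was in 99.2% of spleen cells and 98.4% of bone marrow cells. Its peak was MCP, at 4036 CPM (3937 to 4137) in spleen and 2236 CPM (2039 to 2446) in bone marrow. Elsewhere it lay between 460.4 CPM (MEP) and 1215 CPM (HSC-2) in spleen, and between 682.1 CPM (MEP) and 1228 CPM (HSC-2) in bone marrow. Spleen and bone marrow HSC-2 and HSC-3 differed in it by less than the counting interval, at ratios of 0.989 (0.967 to 1.01) and 0.987 (0.958 to 1.02).

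Genes of granule loading, granzyme activation and release had UMIs in both tissues. Of 16 listed, 13 passed the minimum; of these, none was at least 2-fold higher in spleen and 1 was at least 2-fold lower: Rab27a, which docks granules, at 22.0 CPM in spleen and 56.6 CPM in bone marrow. Stx11, a membrane fusion protein of granule release, was below the minimum and over 2-fold higher in spleen, at 12.1 CPM in spleen and 3.35 CPM in bone marrow. Ctsc, which activates granzymes by removing a dipeptide, was at 42.5 CPM in spleen and 38.5 CPM in bone marrow, and at 207 and 70.5 CPM in MCP. Ctsw, a lymphocyte protease, was at 54.4 CPM in spleen LP and 14.5 CPM in bone marrow LP. Of 7 effector ligands and cytokines, 3 passed the minimum and all 3 were at least 2-fold lower in spleen: Ccl3 (16.4 and 106 CPM), Ccl4 (25.7 and 118 CPM) and Tnfsf10 (16.6 and 38.7 CPM, spleen before bone marrow in each). Ifng had 2 UMIs in spleen and 1 in bone marrow. In spleen MCP, Ccl3 and Ccl4 were at 679.6 and 1170 CPM in cells with Gzmb and 16.2 and 37.8 CPM in cells without. Of 11 genes listed as regulators, which are not particular to cytotoxic cells and include the mast cell marker Gata2, 6 passed the minimum. Of these, 2 were at least 2-fold higher in spleen: Id2, highest in spleen MP at 1214 CPM, and the receptor chain Il2ra, highest in spleen LP at 166.1 CPM. Tbx21 and Eomes, the T-box regulators of killer lymphocytes, had 20 and 3 UMIs in spleen and 2 each in bone marrow.

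Of 8 markers of natural killer cells 1 passed the minimum, Klrk1, at 71.7 CPM in spleen and 2.77 CPM in bone marrow. Among the others Klrb1c had 137 UMIs in spleen and 122 in bone marrow, Klre1 had 81 and 3, Klra4 had 66 and 0, Ncr1 had 19 and 1, and Klra8 had 0 and 1. The list summed to 75.45 CPM in spleen and 4.54 CPM in bone marrow. Markers of other cell types also differed between the libraries. At least 2-fold higher in spleen were 7 of 9 mast cell markers (11 listed), 5 of 5 T cell markers (12 listed), 6 of 7 dendritic cell markers (8 listed) and 4 of 5 erythroid markers (6 listed) that passed the minimum. At least 2-fold lower in spleen were 5 of 5 neutrophil markers (6 listed), 4 of 4 stem cell markers (4 listed) and the remaining dendritic cell marker. Over all genes that passed, 4.15% were higher and 6.55% lower. A marker near 0 in 1 library passes only through the other, so its direction follows from passing. Trbc1, at 183.5 CPM in spleen and 1.25 CPM in bone marrow, is such a marker. Their part in the differences between tissues was not tested. The 2 libraries shared 16 cell barcodes, and 3 cells with such a barcode held a Gzma, Gzmb or Prf1 UMI.

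By the pattern over the 16 cluster sums (Pearson's r of log2 CPM plus 1, 5549 genes compared, given as a description since clusters of 1 library share it), the genes most like Gzmb were Fcer1a (0.956), the IgE receptor alpha chain, and Chst1 (0.951), a sulfotransferase. Those most like Prf1 were Rgs13 (0.927) and Mcpt2 (0.925). Gzma was nearest to Il2ra (0.975), Bcl11b (0.970) and Trdc (0.967), genes of the T lineage. Nkg7 was nearest to Pde4d (0.927) and Lat (0.923), Srgn to Rasa2 (0.946) and Kit (0.945), and Klrd1 to Jaml (0.927). Ccl5 had the weakest nearest gene, Pycard (0.860). Among the 8 genes themselves, without Gzmc, which was not compared, the highest value was 0.745, between Gzmb and Srgn. Gzma and Gzmb had 0.279. Likeness over cluster sums need not mean the same cells. Within spleen MCP, Fcer1a was at 461.5 CPM in cells with Gzmb and 2477 CPM in cells without, and Srgn at 2915 and 5294 CPM.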

How the data were processed

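The authors deposited a table of raw UMI counts per gene and cell for each tissue and a table that gives each cell its tissue, cluster and 2 reference labels. Reads were aligned to mm10 and counted with Cell Ranger 3.1.0, per the series' design text; the submitters' processing notes name mm9 and Seurat 3.1.5. How cells were filtered and doublets treated is not given in the sources used here. The labels' protocols place the sort after lineage depletion or c-Kit enrichment, so shares of cell kinds reflect that gate.

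Identifiers were paired with symbols through GENCODE M21 (31011 of 31053). Counts were summed per library and cluster and divided by all UMIs of those cells (CPM). Intervals are exact (Poisson for sums, Clopper-Pearson for shares and conditional binomial for ratios). PCR duplicates are removed by UMIs, and the intervals cover counting error only. The size rule is 2-fold on log2 (CPM + 1), with background over genes of at least 10 CPM on average; it was tested on simulated data. Cells were thinned to 3700 UMIs, and, chosen after seeing the data, to 1000. Upstream sequences are from the RefSeq table for GRCm38.p6. Python 3.11.15, numpy, scipy and, for scaling factors, edgeR were used.

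The 8 genes and all lists were chosen with earlier results of these data known. Genes named besides the 8 are those of these lists and, per gene, the most alike in pattern; splits at 10 UMIs were chosen after values were seen.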

Additional observations from a re-analysis of the deposited data

How the results depend on the processing

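No paired analysis was possible because each tissue has 1 library and no test was made. The 3 of 8 genes at least 2-fold higher in spleen became 5 when each cell weighed alike and 5 when each was thinned to 3700 UMIs; the count was 3 or 4 under the other alternatives. Over all genes, 359 became 541 with TMM factors, 190 with clusters weighted alike and 775 with no filter; the 566 lower became 355 with TMM factors, 349 with each cell weighed alike, 320 after thinning and 97 with clusters weighted alike. The share of spleen Gzmb UMIs in MCP was 78% after thinning, against 74.66%, and that of Ccl5 in LP 40.64%, against 36.6%. The cause was not tested. The log2 ratios of Gzma, Gzmb, Prf1, Klrd1 and Ccl5 stayed above 0 in all 8 alternatives (for Gzmb from 2.39 to 6.15), and those of Nkg7 ranged from -0.48 to 0.47 and of Srgn from -0.48 to 0.31. TMM factors moved the median gene from -0.11 to 0.10. Depth limits Prf1, Klrd1 and Gzmc most, since 72.2% of spleen cells with Prf1 and 73.8% of those with Klrd1 held 1 UMI. Bone marrow MCP rests on 36 cells.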

Other observations

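In bone marrow 68 cells held a Prf1 UMI, 34 held Gzmb and 0 held both, numbers too small to show whether the genes are in separate cells. There 15 of the 72 Prf1 UMIs were in 13 of 770 LP cells, at 2.98 CPM (1.67 to 4.92), against 0.677 CPM (0.184 to 1.73) in spleen LP. In spleen, 96 of 176 cells with Prf1 also held Gzmb. Prf1 was at 4.68 CPM in the 125 bone marrow Ery-1 cells, where Gzmb had 0 UMIs.

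A few spleen cells outside LP held many copies of Gzma: the highest of the library, with 98 UMIs, was in HSC-2, where 16 of 737 cells held it, and DCP held 82 UMIs in 9 cells, 1 of them with 48. Of the 1298 spleen UMIs of Gzma, 59.2% were in the 31 cells with 10 or more.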
